A study of Homo sapiens with 6 samples.

Results

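The genes described here encode the upstream part of interferon signalling: the receptor chains IFNAR1, IFNAR2, IFNGR1 and IFNGR2, the kinases JAK1 and TYK2, the transcription factor subunits STAT2 and IRF9, and the feedback inhibitor SOCS1. They were chosen by name, and each was read from the array features (probe sets) that the platform annotation assigns to that symbol alone. Of the 9 genes, 8 had such probe sets, 22 in all, among 19775 genes measured. The annotation used here pairs no probe set with STAT2, so STAT2 was not analysed, and 1 probe set shared by IRF9 and its neighbour RNF31 was left out.

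The samples came from cultures of HT29, an established human line from a colorectal adenocarcinoma, in F12 medium with 7% serum. The day after 300000 cells were plated, polyphenolic cocoa extract (500 µg, volume not given) was added for 3 samples. The 3 controls received saline per the protocol, although their titles call them untreated. After 24 h the RNA of each sample was hybridised to its own Affymetrix Human Genome U133 Plus 2.0 array. The comparison asked which transcripts differed after a day with the extract. Separate growth of a culture for each sample is not stated in the labels, so the p-values cover the spread among these 6 arrays, which may be technical. The small number of arrays limits the precision.

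Type I interferons bind a receptor of IFNAR1 and IFNAR2, whose intracellular parts carry the kinases TYK2 and JAK1. The kinases phosphorylate STAT proteins, and STAT2 joins IRF9 in a complex that enters the nucleus and binds the interferon-stimulated response element of antiviral genes. Interferon gamma uses IFNGR1 and IFNGR2 instead and acts mainly through a STAT dimer at the gamma-activated site, while SOCS1 blocks the kinases of both branches. In epithelia of the gut this signalling is part of the defence against viruses.

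The promoter windows of IRF9 and SOCS1 are shown because they are the only windows of the genes described here that hold either of these motifs. Each window runs from 250 bases before to 50 bases after the start of the transcript and was taken from RefSeq on build GRCh38.p14. That of IRF9 lies at chr14:24161015-24161314 on the plus strand and that of SOCS1 at chr16:11256155-11256454 on the minus strand. Capitals mark the match, in IRF9 to the gamma-activated site and in SOCS1 to the core of the interferon-stimulated response element.
IRF9: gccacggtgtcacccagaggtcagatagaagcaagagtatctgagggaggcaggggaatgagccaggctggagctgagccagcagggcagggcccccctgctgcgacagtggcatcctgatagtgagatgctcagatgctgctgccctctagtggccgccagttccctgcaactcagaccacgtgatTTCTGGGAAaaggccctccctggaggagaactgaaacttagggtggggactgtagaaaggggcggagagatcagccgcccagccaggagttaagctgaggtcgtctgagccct
SOCS1: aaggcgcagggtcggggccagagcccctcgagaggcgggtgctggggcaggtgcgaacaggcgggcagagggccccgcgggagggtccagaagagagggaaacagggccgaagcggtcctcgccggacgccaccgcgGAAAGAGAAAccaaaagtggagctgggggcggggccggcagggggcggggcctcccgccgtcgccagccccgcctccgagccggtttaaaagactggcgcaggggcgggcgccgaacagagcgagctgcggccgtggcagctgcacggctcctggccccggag

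The gamma-activated site was searched as TTCNNNGAA, which reads the same on both strands, and the response element core as GAAANNGAAA on either strand. The patterns can overlap in part, but neither window shown held both. The table held 12 windows for 8 of the 9 genes, none of them for IFNAR2. The match in IRF9, TTCTGGGAA, began 63 bases before the start, and the match in SOCS1, GAAAGAGAAA, began 113 bases before it. Among all 35116 windows of this length, 7.66% held the first pattern and 3.57% the second. These are matches of letters in a window and not measured binding. The only window of the STAT2 gene held neither pattern, nor did those of IFNAR1, IFNGR1, IFNGR2, JAK1 and TYK2.

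IRF9, the DNA-binding subunit of the complex with STAT2, was the only gene of the 8 called as changed, at a limma adjusted p below 0.05. Expression is given as centred log2 values: the authors' table sets the median of each probe set over the 6 arrays to 0, so the values show differences between arrays and hold no levels. IRF9 read 0.56, 0.46 and 0.69 in the cocoa arrays, against −0.46, −0.66 and −0.79 in the control arrays. All 3 cocoa arrays lay above all 3 controls, with a gap wider than the whole range of either group. In RNA of whole cultures, a change in each cell and a change in the share of cells cannot be told apart. The mean was 0.57 ± 0.11 with cocoa and −0.64 ± 0.17 in controls (SD, n = 3 arrays each). The log2 difference of 1.21 (SE 0.096, 95% interval 0.99 to 1.42) is a 2.31-fold increase, with a limma adjusted p of 0.000115. In the order of all 19775 genes by log2 difference, IRF9 stood at place 61 from the largest increase. It rests on 1 probe set, and its adjusted p was 0.000635 in the fit over probe sets.

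Across all genes, 13.5% passed the threshold of a limma p below 0.05 after Benjamini-Hochberg adjustment, 7.36% higher and 6.12% lower with cocoa. The 1 called gene of the 8 is 12.5%, near that background, so the count itself does not set these genes apart. Their median log2 difference was 0.11, against −0.012 over all genes. Groups did not overlap in 4 of the 8, namely IFNAR1, IFNAR2, IFNGR2 and IRF9, against 32.5% of all genes. The plot of values by array shows how far IRF9 stood from the other 7.

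**Figure D1:**
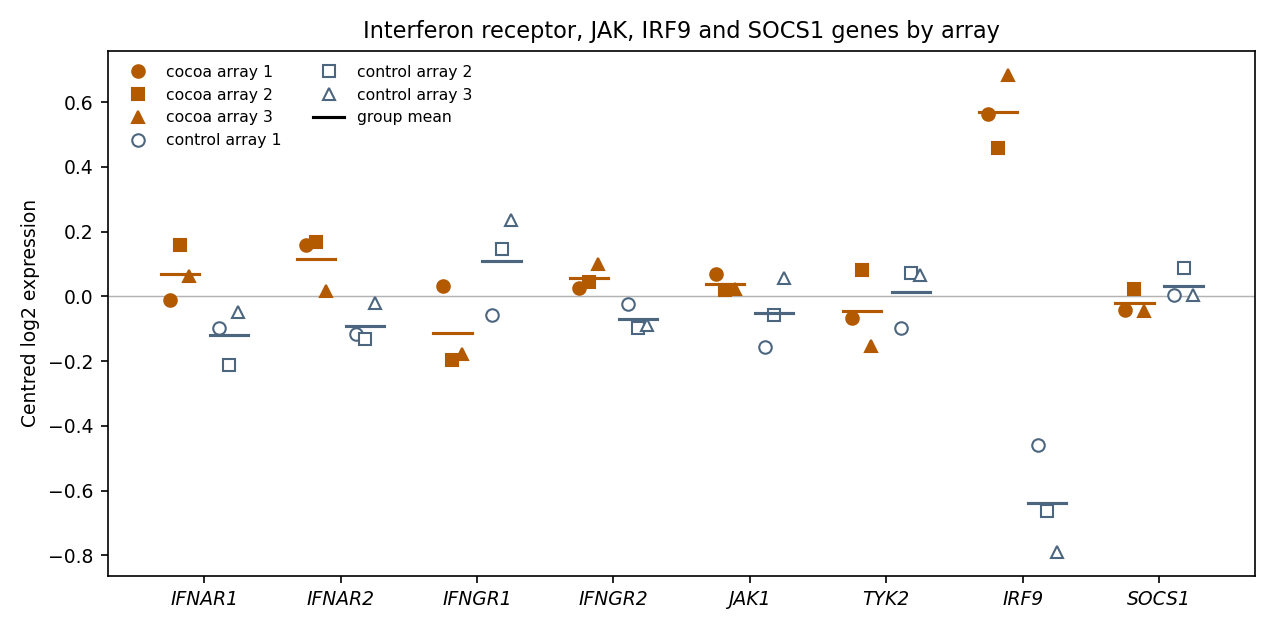
Centred log2 expression (vertical axis) of the 8 measured genes (horizontal axis), with 1 marker per array, filled for cocoa and open for control, and bars at the group means. IRF9 has cocoa arrays between 0.46 and 0.69 and control arrays between −0.79 and −0.46, while the other 7 genes lie within 0.24 of 0 on every array.

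The type I receptor chains had small positive differences that did not pass the threshold. IFNAR2, the chain that binds interferon most tightly, read 0.16, 0.17 and 0.017 in the cocoa arrays, against −0.12, −0.13 and −0.022 in the controls. Cocoa array 3 and control array 3 were close to each other, and the groups did not overlap. Its log2 difference was 0.20 (SE 0.070, 95% interval 0.045 to 0.36, limma adjusted p = 0.0932). IFNAR1, the second chain, read −0.011, 0.16 and 0.062 with cocoa, against −0.099, −0.21 and −0.048 in controls, again without overlap. Its log2 difference was 0.19 (SE 0.074, 95% interval 0.022 to 0.36, limma adjusted p = 0.132).

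The probe sets of both chains disagreed. For IFNAR2, 204786_s_at and 227125_at had log2 differences of 0.37 and 0.27 (limma adjusted p over probe sets 0.0815 and 0.0841), while 204785_x_at had −0.030 (0.876). The suffixes _s_at and _x_at mark probe sets that can match several transcripts. For IFNAR1, 1 of 4 probe sets passed: 225661_at read 0.13, 0.13 and 0.15 in the cocoa arrays, against −0.32, −0.16 and −0.13 in the controls. Its log2 difference was 0.34 (SE 0.080, adjusted p = 0.0375), and leaving out any 1 of the 6 arrays ended this call (adjusted p 0.0641 to 0.127). The probe sets 225669_at and 204191_at had 0.33 and 0.24, while 236478_at had −0.15, and none of these 3 passed. In all, 2 of the 22 probe sets were called (9.09%, against 7.98% of all probe sets), both higher, and in 8 of the 22 the groups did not overlap (36.4%, against 27.6% of all probe sets).

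Of the interferon gamma receptor, IFNGR1, the ligand-binding chain, had a negative difference that did not pass. It read 0.031, −0.20 and −0.18 in the cocoa arrays, against −0.057, 0.15 and 0.24 in the controls. Cocoa array 1 lay above control array 1, so the groups overlapped. The log2 difference was −0.22 (SE 0.095, 95% interval −0.44 to −0.009, limma adjusted p = 0.167). The groups overlapped in 242903_at, whose values ran from −0.26 to 0.37 with cocoa and from −0.40 to 0.56 in controls. In the other probe sets the groups did not overlap: 211676_s_at had −0.35 (adjusted p = 0.0652) and 202727_s_at had −0.19 (0.17). With the median of the 3 probe sets in place of their mean, IFNGR1 was called lower (log2 difference −0.22, adjusted p = 0.0468).

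IFNGR2, the second chain of this receptor, read 0.025, 0.045 and 0.099 in the cocoa arrays, against −0.025, −0.099 and −0.087 in the controls. The groups did not overlap, but the values were small. The log2 difference was 0.13 (SE 0.062, 95% interval −0.014 to 0.27, limma adjusted p = 0.233) on 1 probe set. The mean of IFNAR1 and IFNAR2 minus IFNGR1 within each array was 0.042, 0.36 and 0.22 with cocoa, against −0.051, −0.32 and −0.27 in controls. The difference of 0.42 between the groups had a two-sided exact permutation p of 0.1, the smallest that 3 against 3 arrays allow. This measure was chosen after the values were seen, so its p is no evidence of a contrast between the receptors. It leaves out IFNGR2, whose difference was above 0.

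Cocoa arrays 2 and 3 stood apart in control probe sets, and the mean of the IFNGR1 probe sets was lowest on those arrays. Its probe sets did not share this order. Among the cocoa arrays, 211676_s_at and 242903_at were lower on arrays 2 and 3. By contrast, 202727_s_at was lowest on array 1 (−0.20, against −0.062 on array 2 and −0.11 on array 3). The centred signal of 18S ribosomal RNA read −0.51, 3.31 and 1.40 with cocoa (arrays 1, 2 and 3), and between −1.12 and 0.51 in controls. The 5′ minus 3′ signal of actin and GAPDH read 0.032, −0.26 and −0.053 in the same order, and between 0.009 and 0.033 in controls. Adding the 18S signal to the model gave log2 differences of 1.27 for IRF9 (limma adjusted p = 0.00114) and −0.16 for IFNGR1 (0.479). Without cocoa array 2, IRF9 had 1.26 (0.000572). The part of these signals in the smaller differences was not tested further.

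The kinases and the inhibitor showed no change past the threshold. JAK1, which serves both interferon receptors, read 0.069, 0.020 and 0.023 in the cocoa arrays, against −0.16, −0.059 and 0.058 in the controls, with control array 3 inside the cocoa range. Its log2 difference was 0.089 (95% interval −0.073 to 0.25, limma adjusted p = 0.495), and its 5 probe sets ran from −0.016 to 0.17. TYK2, the kinase bound to IFNAR1, read −0.067, 0.081 and −0.15 with cocoa, against −0.098, 0.072 and 0.067 in controls. The groups overlapped throughout, and the difference was −0.060 (95% interval −0.25 to 0.13, adjusted p = 0.722).

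SOCS1, which is itself induced by interferon in many cells, read −0.043, 0.023 and −0.044 in the cocoa arrays, against 0.003, 0.089 and 0.005 in the controls. The groups overlapped, and the log2 difference was −0.054 (95% interval −0.20 to 0.088, limma adjusted p = 0.662). Its 4 probe sets ran from −0.12 to 0.055, all with a suffix that marks possible matches to several transcripts. For these 3 genes the upper bounds of the gene intervals correspond to increases of 1.19-fold (JAK1), 1.09-fold (TYK2) and 1.06-fold (SOCS1). The lower bound for IRF9 was 1.98-fold. Single probe sets had upper bounds of up to 1.31-fold for JAK1 (1552610_a_at) and 1.18-fold for SOCS1 (209999_x_at). Values near background are compressed on arrays, and without levels this could not be judged for any gene.

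**Figure D2:**
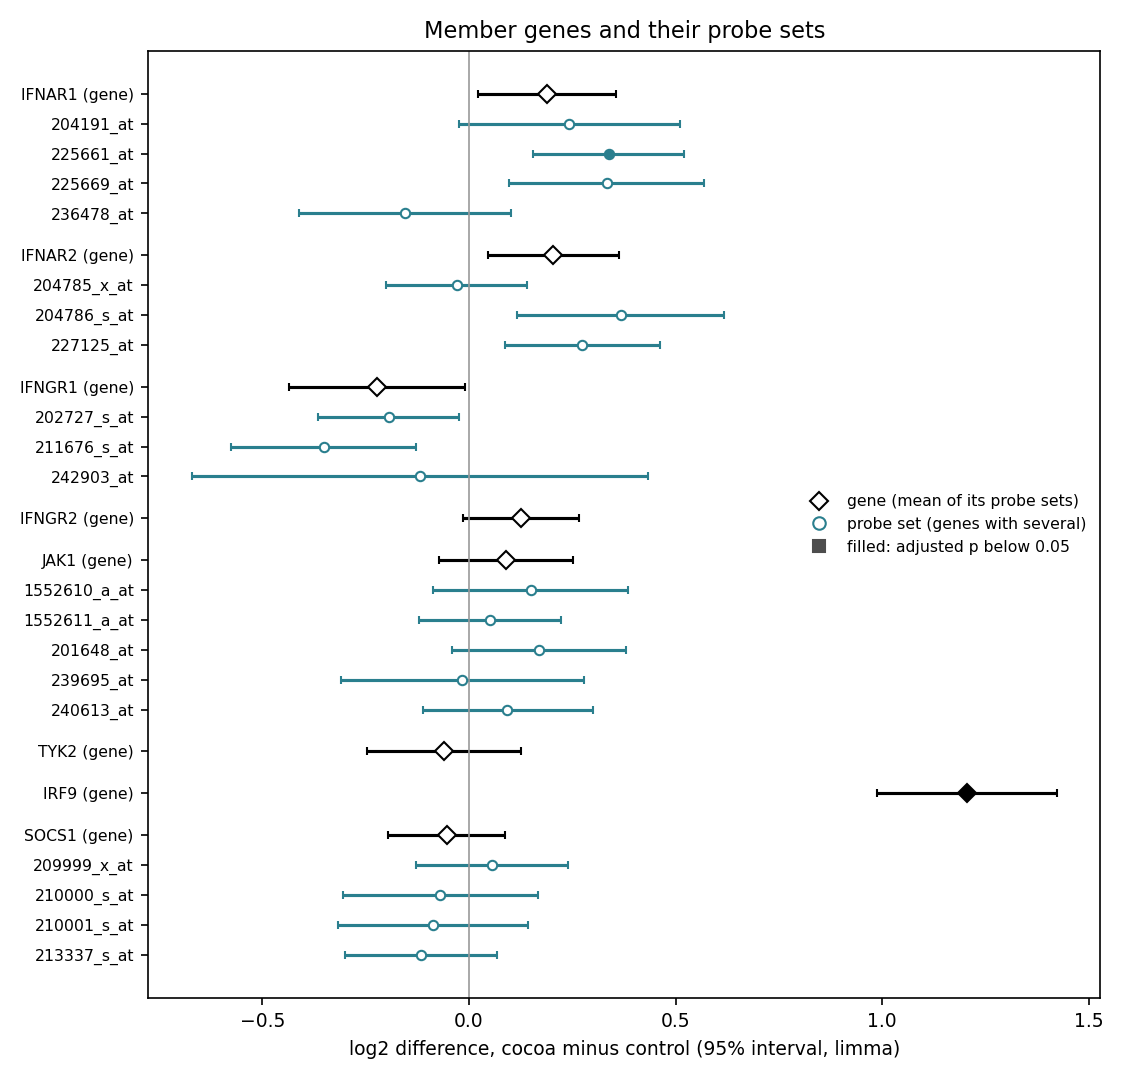
Log2 difference, cocoa minus control (horizontal axis), with its 95% interval from limma, for the 8 genes (diamonds) and, where a gene has several, its probe sets (circles). Filled symbols have an adjusted p below 0.05: they are IRF9 and the IFNAR1 probe set 225661_at, and probe sets of IFNAR1 and IFNAR2 fall on both sides of 0.

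The genes IFNAR2, IFNAR1 and IFNGR2 lie next to each other on chromosome 21, together with IL10RB, the shared chain of the receptors for interleukin 10, interleukin 22 and interferon lambda. On build GRCh38.p14 of RefSeq, IFNAR2 spans 33229938 to 33265664, IL10RB 33266367 to 33310182, IFNAR1 33324395 to 33359864 and IFNGR2 33402882 to 33437516. IL10RB read 0.21, 0.34 and 0.084 in the cocoa arrays, against −0.084, −0.20 and −0.11 in the controls, without overlap. It rose, with a log2 difference of 0.35 (SE 0.081, limma adjusted p = 0.0218). The 4 genes of the cluster thus all had differences above 0, but IFNAR1, IFNAR2 and IFNGR2 were not called. The probe sets 236478_at of IFNAR1 and 204785_x_at of IFNAR2 had differences below 0. When each array was left out in turn, IL10RB stayed called in 2 of 6 cases (adjusted p 0.0176 to 0.0979), and the replicate block ended the call (0.0563). The other 6 of the 9 genes are on chromosomes 1 (JAK1), 6 (IFNGR1), 12 (STAT2), 14 (IRF9), 16 (SOCS1) and 19 (TYK2).

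Of 16 other receptor chains that signal through JAK kinases, 2 rose, none fell and 14 did not pass (median log2 difference 0.020). The 2 called are near the 13.5% of all genes, and none of the 16 was called with the 18S covariate, the 5′ minus 3′ covariate or the replicate block. Leaving out 1 array gave 0 called (without control array 1, control array 2 or cocoa array 2), 1 (without control array 3 or cocoa array 3) or 3 (without cocoa array 1). Besides IL10RB, IFNLR1 rose, the chain that with IL10RB forms the receptor of interferon lambda. It read 0.089, 0.14 and 0.18 with cocoa, against −0.15, −0.28 and −0.056 in controls. The log2 difference was 0.30 (SE 0.075, limma adjusted p = 0.0278), and it stayed called in 2 of 6 cases when each array was left out in turn (0.03 to 0.123). With the replicate block its adjusted p was 0.0502. IL6ST, the shared chain of the interleukin 6 family, had −0.28 (adjusted p = 0.136) and IL22RA1, a chain of the interleukin 22 receptor, had 0.004 (0.982).

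None of 8 genes for interferons themselves passed (0 at an adjusted p below 0.05 and 1, IFNG, at an unadjusted p below 0.05 in limma). Their median log2 difference was −0.062. With 13.5% of all genes called, a count of 0 among 8 says little. Without levels, it could not be judged whether these genes were expressed. The differences were −0.14 for IFNB1 (adjusted p = 0.558), −0.21 for IFNG (0.131), 0.034 for IFNL1 (0.833) and 0.15 for IFNA2 (0.259). None of 6 other JAK and STAT genes passed either (0 at an adjusted p below 0.05 and 1 at an unadjusted p below 0.05). Against 13.5% over all genes, that count too says little. All 6 had differences above 0 (median 0.072). The exception at the unadjusted level was STAT5A, a factor of growth hormone and prolactin signalling, which read 0.043, 0.39 and 0.22 with cocoa, against −0.043, −0.15 and −0.078 in controls (log2 difference 0.31, adjusted p = 0.0549). STAT3, the main factor of interleukin 6 signalling, had 0.054 (0.677) and STAT6, the factor of interleukin 4 signalling, had 0.090 (0.532). The other three, JAK3, STAT4 and STAT5B, had 0.093 (0.546), 0.053 (0.868) and 0.004 (0.983). Of these 6 genes, 1 was called with array weights, with quantile normalisation, with each array centred on its median and without cocoa array 1. Further members of both families were not analysed here.

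Among 16 inhibitors of JAK and STAT signalling 1 rose, none fell and 15 did not pass (median −0.081), against 13.5% called over all genes. The count was 2 with array weights and 3 without cocoa array 1. The one that rose was USP18, which displaces JAK1 from IFNAR2 and removes the ubiquitin-like ISG15 from proteins. It read 0.49, 0.67 and 0.71 in the cocoa arrays, against −0.49, −0.84 and −0.68 in the controls. The log2 difference of 1.30 (SE 0.10, a 2.46-fold increase, limma adjusted p = 9.29e-05) was close in size to that of IRF9. The other members of the SOCS family, which block receptors and kinases, had values on both sides of 0. SOCS3 had −0.16 (adjusted p = 0.207), SOCS4 −0.26 (0.342), SOCS5 −0.14 (0.214), SOCS6 −0.012 (0.942), SOCS7 −0.088 (0.491), CISH 0.16 (0.236) and SOCS2 0.003 (0.989). The phosphatases PTPN11 and PTPN6 had −0.28 (0.107) and 0.20 (0.141).

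Of 11 genes for nuclear import and cofactors of STAT proteins, 2 rose, 1 fell and 8 did not pass (median −0.032), against 7.36% higher and 6.12% lower over all genes. RNF20, a ubiquitin ligase of histone H2B, rose by 0.36 (SE 0.067, limma adjusted p = 0.00818). NMI, which binds STAT proteins and is induced by interferon, rose by 0.33 (SE 0.074, adjusted p = 0.0181). CDK8, a kinase of the Mediator complex that phosphorylates STAT proteins, fell by 0.35 (SE 0.069, adjusted p = 0.0109). Leaving out each array in turn, NMI stayed called in 3 of 6 cases (0.0195 to 0.0875) and RNF20 and CDK8 in all 6, while none of the 3 passed with the 18S covariate (0.0652 to 0.103). With the replicate block NMI had an adjusted p of 0.056.

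All 17 listed genes that the complex of STAT2 and IRF9 drives in the type I response rose, against 7.36% of all genes called higher. Their median log2 difference was 1.66, against −0.012 over all genes, with limma adjusted p of at most 0.016. The count was 16 with the 18S covariate, without control array 2 and at an adjusted p below 0.01. Without the _s_at and _x_at probe sets it was 14, but IFITM1 had no value there. This list was made with earlier results of these arrays known and is no independent evidence of its direction. IFI44L, an interferon-induced protein, read 1.58, 2.17 and 2.31 in the cocoa arrays, against −1.58, −1.88 and −1.93 in the controls (log2 difference 3.81, SE 0.17). Next in this list came IFIT1, which binds viral RNA (2.52), IFITM1, which hinders viral entry (2.36), and MX2, an antiviral GTPase (2.27). The differences of 10 of the 17 exceeded that of IRF9. The mean of the list was 0.66, 0.90 and 1.00 in the cocoa arrays, against −0.67, −0.86 and −0.88 in the controls, and cocoa array 1, not array 2, was thus the lowest of the cocoa arrays, unlike for IRF9. Of the 17, 13 had a promoter window, and 12 of these held the response element core, against 4.38% of all 27305 genes with a window and SOCS1 alone among the genes described here. The list was chosen as targets of the complex that binds this element, so the share with the core is no independent evidence either. The gamma-activated site was in 4 of the 13, against 9.38% of all genes. Of the 9 genes with a window in the list driven by interferon gamma, described next, 4 held the response element core and 3 the gamma-activated site.

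Of 14 listed genes driven by interferon gamma, 3 rose, none fell and 11 did not pass (median 0.17), against 13.5% called over all genes. Without cocoa array 3, 5 of the 14 were called. CXCL11, a chemokine for activated T cells, rose by 0.94 (SE 0.14), its relative CXCL10 by 0.67 (SE 0.12) and the transcription factor IRF1 by 0.52 (SE 0.079), with limma adjusted p of 0.00244, 0.00729 and 0.00314. These 3 also respond to type I interferon. CIITA, the activator of MHC class II genes, had −0.016 (adjusted p = 0.935), and its target HLA-DRA had −0.010 (0.971). GBP1, a GTPase of the gamma response, read 0.26, 0.66 and −0.016 with cocoa, against −0.36, −0.088 and −0.053 in controls (log2 difference 0.47, adjusted p = 0.0825).

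**Figure D3:**
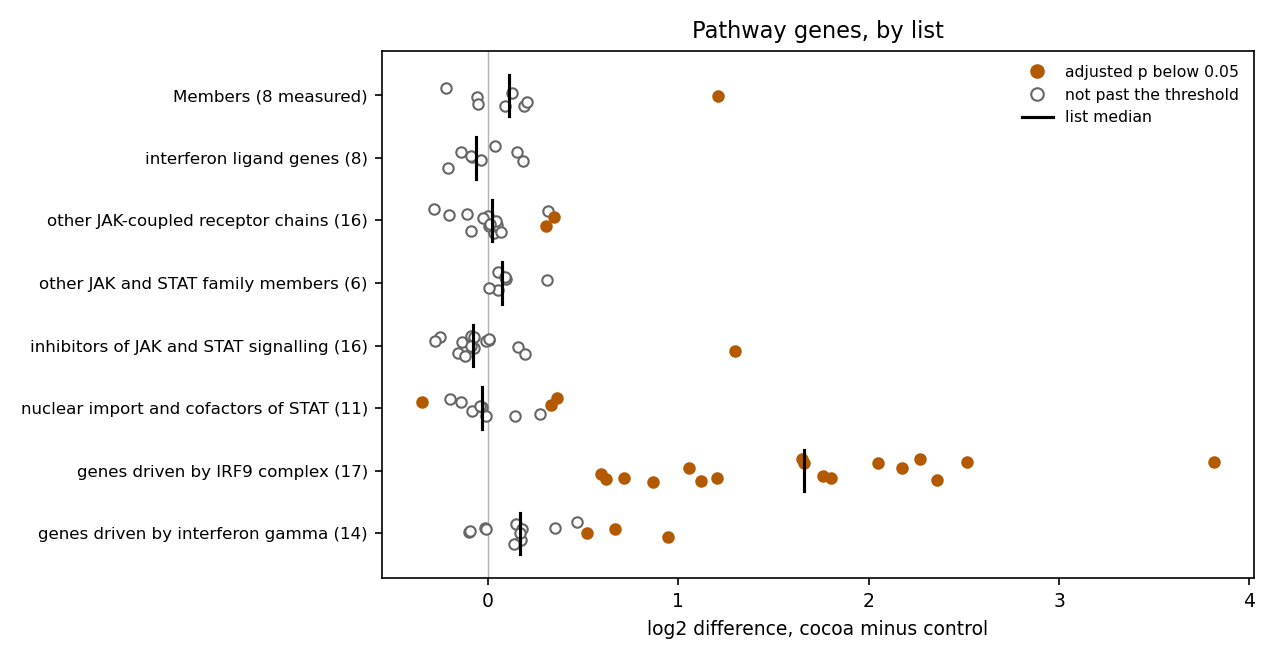
Log2 difference, cocoa minus control (horizontal axis), for every measured gene of the members and of 7 pathway lists (rows, with the number measured), filled where the adjusted p is below 0.05, with the list median as a vertical bar. All 17 genes driven by the IRF9 complex lie between 0.59 and 3.81, while each of the other lists has a median between −0.081 and 0.17.

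The 5 genes most like IRF9 over the 6 arrays were found by Pearson's r among 2921 genes with an SD of at least 0.2. They were PLAAT4, a phospholipase and acyltransferase induced by retinoids and interferon (r = 0.9992), IFI35, an interferon-induced partner of NMI (0.9986), S100P, a calcium-binding protein (0.9983), PRSS8, an epithelial serine protease (0.9982), and RARRES1, a retinoid-induced membrane protein (0.9979). With 3 arrays per group, most of each r is the step between the groups. PLAAT4 read 0.64, 0.56 and 0.74 with cocoa, against −0.56, −0.76 and −0.91 in controls, so cocoa array 3 was highest and control array 3 lowest, as for IRF9. Log2 differences were 1.39 for PLAAT4, 1.26 for IFI35, 1.04 for RARRES1, 0.39 for PRSS8 and 0.38 for S100P, all past the threshold. Among the genes described here, IFNGR2 was the most like IRF9 (r = 0.945 over 6 arrays) despite its small size, IFNGR1 the least (−0.773), and IFNAR1 and IFNAR2 had r = 0.82 with each other.

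**Figure D4:**
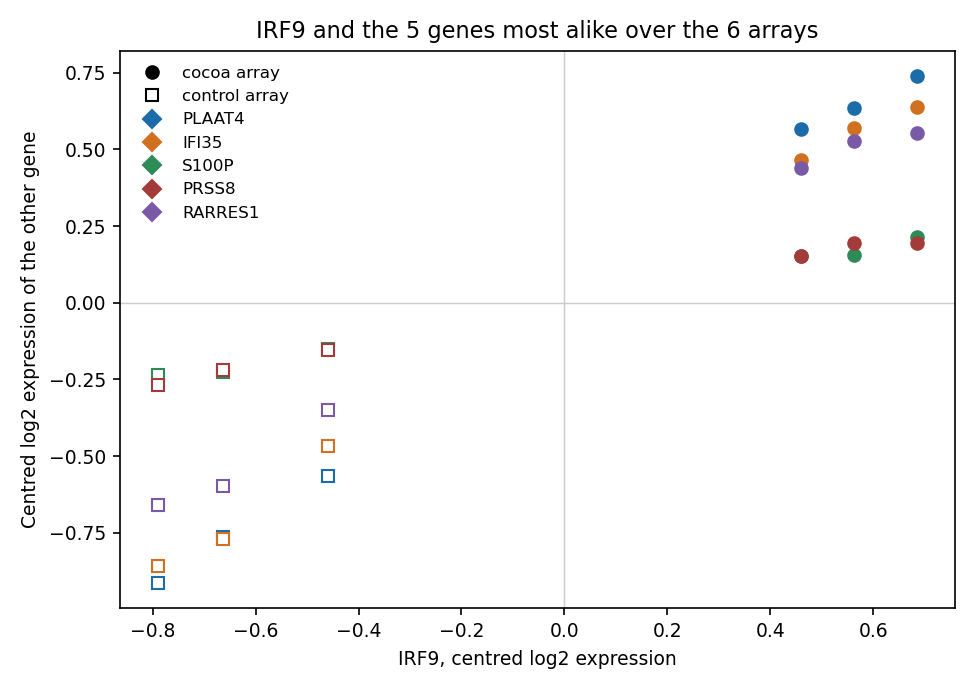
Centred log2 expression of IRF9 (horizontal axis) against that of each of the 5 most similar genes (vertical axis, 1 colour per gene), with filled circles for cocoa arrays and open squares for control arrays. The arrays form 2 separate groups, and within each group the order of the arrays for all 5 genes is that of IRF9. The genes were picked for their likeness to IRF9.

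Because the table holds no levels, the epithelial identity of the cells could not be checked against marker levels, only differences. Of 11 colon epithelial markers 2 rose, the intestinal cadherin CDH17 (log2 difference 0.56, limma adjusted p = 0.0126) and the surface antigen GPA33 (0.24, 0.0481), and none fell. Of 7 leukocyte markers measured 1 rose, CD14, a co-receptor for bacterial lipopolysaccharide (0.75, 0.00321), and the other 6 did not pass. None of 7 fibroblast markers and 5 endothelial markers passed. Over all genes 13.5% were called, so none of these small counts sets the markers apart. CD14 read 0.38, 0.23 and 0.28 in the cocoa arrays, against −0.23, −0.42 and −0.72 in the controls, while the other 6 leukocyte markers had differences between −0.020 and 0.081. The part of this difference in the values above was not tested.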

How the data were processed

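The authors' deposited log2 values were made with RMA, which the submitters' processing notes name, and the series text adds GeneSpring GX, without versions. RMA normally corrects background, equalises the distributions of arrays and summarises probes. From the values, each of 54675 probe sets is centred on the median of 6 arrays. Base 2 follows from RMA, and no depth or signal over background is known.

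The 62 control probe sets were left out of the tests. Of the other 54613, 41091 carried 1 symbol in the platform annotation, 1801 several and 11721 none. Probe sets of a gene were averaged. Cocoa minus control was fitted over all genes, and over all probe sets, with limma 3.58.1 (lmFit, eBayes) in R 4.3.3 and Benjamini-Hochberg adjustment. The model was checked on simulated data. Intervals are limma's 95% intervals.

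Members, lists and alternatives were chosen with earlier results of these data known. Named by rule were all members, up to 4 changed genes per list by size, and the 5 genes most like each changed member. Other genes named, all uncalled or markers, were chosen after their values were seen. Alternatives were the replicate block, a robust prior, array weights, quantile normalisation, array centring, the median over probe sets, probe sets without shared suffixes, both covariates, leaving out each array and stricter thresholds. Correlations of same-numbered arrays' deviations from their group means were −0.12, −0.009 and −0.003, so no pairing by number was seen in the values. Whether the numbers marked pairs in the experiment is not known. Figures used matplotlib 3.10.9.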

Additional observations from a re-analysis of the deposited data

Results flagged for a closer look

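The 18S ribosomal RNA control probe sets, which lie outside the gene comparison, had a mean centred log2 signal of 3.31 in cocoa array 2 and 1.40 in cocoa array 3, above the highest control array (0.51). IRF9 was lowest among the cocoa arrays in array 2 (0.46) and highest in array 3 (0.69).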

How the results depend on the processing

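IRF9 kept its sign and its call in all 15 alternative fits, with log2 differences of 1.13 to 1.29 and adjusted p of 5.25e-05 to 0.00175, and also at an adjusted p below 0.01 or a log2 difference of at least 0.5. The other 7 genes kept their signs throughout and stayed uncalled, except IFNGR1 with the median of its probe sets (−0.224), which made 2 of 8 genes called. TYK2 and SOCS1 have no value without the _s_at and _x_at probe sets.

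With the replicate block, 1947 genes and 2078 probe sets changed, against 2666 and 4358 without it, and IRF9 reached 0.00175. The 18S covariate gave counts of 1103 and 1314, with the 5′ minus 3′ covariate 1411 and 1808, at an adjusted p below 0.01 1152 and 1336, and at a log2 difference of at least 0.5 686 and 2200. In each of these alternatives 1 of 22 probe sets, that of IRF9, was called. Leaving out 1 array gave 1315 (without control array 2) to 2881 genes, 1416 to 4602 probe sets and 1 to 3 called probe sets of the 22. The cause was not tested.

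Uncalled probe sets near 0 changed sign: 204785_x_at of IFNAR2 to 0.022 and 0.015, 242903_at of IFNGR1 to 0.013 and 0.013, and 239695_at of JAK1 to 0.022 and 0.084 with the 18S and the 5′ minus 3′ covariates. Without 1 array, 242903_at ran from −0.37 to 0.111, 239695_at from −0.146 to 0.072 and 210000_s_at of SOCS1 from −0.138 to 0.015. Without levels, a filter on dim probe sets could not be applied.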
